A study of Homo sapiens with 12 samples.

Results

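The 10 genes described here encode the receptors for insulin and insulin-like growth factors (IGF1R and INSR), the docking proteins these receptors phosphorylate (IRS1 and IRS2) and 6 secreted IGF-binding proteins (IGFBP2 to IGFBP7), out of 19775 genes on the arrays. They were chosen by name; each gene is represented by its brightest probe set over the 12 arrays among those paired with 1 gene symbol, and its other probe sets serve as a check. The levels are microarray signals from 2 established cell lines of human lung adenocarcinoma, PC9 and HCC827, both with an activating mutation of EGFR. PC9 cells were kept for 8 days in 2 µM erlotinib, an inhibitor of the EGFR kinase, or for 8 days in DMSO, the solvent alone; HCC827 cells were kept in the same erlotinib dose or DMSO for the same 8 days. Each of the 4 groups has 3 arrays, and all cells grew in RPMI medium with 10% serum, renewed once. The labels describe dishes for DMSO and larger flasks with more plated cells for erlotinib, whereas the series description names flasks for all, so vessel, plating and drug cannot be told apart. The labels do not say whether a group's arrays are separate cultures; the p-values then measure only the spread between these samples, which may be technical.

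IGF1R and INSR are related receptor tyrosine kinases that can also pair into hybrid receptors. After a ligand binds, they phosphorylate IRS1 and IRS2, which recruit PI3-kinase and lead to AKT; active AKT keeps the FOXO transcription factors out of the nucleus, and INSR and IRS2 are themselves textbook FOXO targets. The IGFBPs circulate in the fluid around cells, bind IGF1 and IGF2 and hold them away from or near their receptor, and proteases such as PAPPA release the ligand again. In lung cancer cells this pathway has been studied as a route of survival when EGFR is inhibited.

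The sequence just upstream of the start site is shown for 4 genes: the receptor pair that rose in both lines, and IGFBP3 and IGFBP5, which rose in PC9 and were not called in HCC827. Each window is the 250 bases before the RefSeq start (GRCh38.p14), written 5′ to 3′ along the gene's strand; capitals mark matches, on either strand, to the GC box GGGCGG or to the TATA-type letters TATANA. The IGF1R window is chr15:98648289-98648538 on the plus strand, INSR is chr19:7294415-7294664, IGFBP3 is chr7:45921273-45921522 and IGFBP5 is chr2:216695550-216695799, the last 3 on the minus strand.
IGF1R: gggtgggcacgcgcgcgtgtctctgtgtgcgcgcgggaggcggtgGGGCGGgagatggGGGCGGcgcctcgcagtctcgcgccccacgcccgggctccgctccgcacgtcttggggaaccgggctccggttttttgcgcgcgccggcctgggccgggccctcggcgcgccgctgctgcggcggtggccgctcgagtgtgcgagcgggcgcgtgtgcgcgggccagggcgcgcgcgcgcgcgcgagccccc
INSR: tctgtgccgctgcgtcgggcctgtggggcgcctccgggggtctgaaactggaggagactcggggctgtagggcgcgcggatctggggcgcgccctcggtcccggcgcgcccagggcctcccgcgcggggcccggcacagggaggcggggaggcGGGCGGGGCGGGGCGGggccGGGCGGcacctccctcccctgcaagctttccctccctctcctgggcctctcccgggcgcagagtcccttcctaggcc
IGFBP3: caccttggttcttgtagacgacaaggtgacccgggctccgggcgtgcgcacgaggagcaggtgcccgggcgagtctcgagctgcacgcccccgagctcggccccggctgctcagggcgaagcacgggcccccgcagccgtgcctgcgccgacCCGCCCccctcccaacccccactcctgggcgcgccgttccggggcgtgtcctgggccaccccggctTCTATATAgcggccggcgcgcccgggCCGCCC
IGFBP5: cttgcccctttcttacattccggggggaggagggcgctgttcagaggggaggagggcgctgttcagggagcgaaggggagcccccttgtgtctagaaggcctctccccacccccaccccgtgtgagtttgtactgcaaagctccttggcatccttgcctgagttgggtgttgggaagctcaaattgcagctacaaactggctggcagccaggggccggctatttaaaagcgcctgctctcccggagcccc
Windows of the receptors and docking proteins are rich in G and C, 81.2% in IGF1R, 78.4% in INSR, 80.8% in IRS1 and 76.4% in IRS2, and so is that of IGFBP3 with 76.0%; the other IGFBP windows hold 56.4% to 71.6%, and the median over 35116 RefSeq windows of the same length is 58%. GGGCGG, a motif present in 42.6% of all windows, has 2 matches in IGF1R, 4 in INSR, of which 3 overlap in a run, 4 in IRS1 and 5 in IRS2. The IGFBP3 window holds 2 overlapping matches to TATANA, from position -32 to -25 where -1 is the base before the start, and 2 to GGGCGG. The IGFBP4 window also holds 1 match to TATANA, from position -29 to -24, and 17.7% of all windows hold this pattern. The GC box has 1 match each in the windows of IGFBP4 and IGFBP6 and in some windows of IGFBP2. The IGFBP5 window matches neither pattern letter for letter, although it holds the letters tatttaaaa near its 3′ end, which were not searched for. In a search of both strands for GTAAACA, a forkhead core found in 2.98% of windows, IGFBP6 had the only match among the 9 genes with a window, from position -186 to -180. TGANTCA, the AP-1 core found in 6.57% of windows, had no match in any of these 9, and CCAAT, found in 32% of windows, matched in IRS2 and in 1 of 3 windows of IGFBP2. These are letters in a window of 250 bases and not measured binding.

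All 12 arrays had been scaled alike, had median signals from 11.1 to 14.5 and correlated within groups with r from 0.9929 to 0.9973; the number of arrays limits the precision. A signal is compared only between arrays for 1 probe set, since the brightness of different probe sets is not comparable. A change is a difference of group means of log2(signal + 8), with its standard error (SE), and a gene was called where limma's Benjamini-Hochberg adjusted p over 13185 genes was under 0.05; the constant 8 makes changes of dim genes smaller. All 10 genes passed the filter, a group mean of at least the table's median signal of 13, although IGFBP5 in both HCC827 groups and IGFBP7 in 2 groups lay under that level. Epithelial markers were bright in every group, 6 of 6, with summed signals from 13165 to 17564. The 4 leukocyte markers analysed summed to at most 30.6, and CD68, also chosen, was not among the genes analysed. Of these 4, CD79A averaged 24 in DMSO-treated HCC827, over the median of 13, against 4.97 in erlotinib. EGFR itself had 817, 906 and 842 in erlotinib-treated PC9, against 1207, 1175 and 1203 in DMSO, a change of -0.48 ± 0.05 (SE, limma adjusted p = 1.04e-06). In HCC827 the EGFR change was -0.002 (limma adjusted p = 0.976), with signals from 2118 to 2381 in erlotinib and from 2200.3 to 2329.9 in DMSO; with EGFR's probe sets averaged it was -0.38 and called (limma adjusted p = 0.000899).

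Within the family the calls ran in both directions in each line. In PC9, 4 genes were higher (IGF1R, INSR, IGFBP3, IGFBP5), 5 were lower (IRS1, IRS2, IGFBP2, IGFBP4, IGFBP6) and IGFBP7 was not called; over all genes 64.7% were called in this comparison, 36.3% higher and 28.3% lower. In HCC827, 5 were higher (IGF1R, INSR, IRS2, IGFBP2, IGFBP7), 3 were lower (IRS1, IGFBP4, IGFBP6) and IGFBP3 and IGFBP5 were not called, where 51.7% of all genes were called, 32.2% higher and 19.5% lower. With most genes called in each line, the number of calls among these 10 is no result about them. At least 2-fold, 3 genes were higher in PC9 (INSR, IGFBP3, IGFBP5) and 2 lower (IRS1, IGFBP2), beside 9.61% and 3.41% of all genes, and 3 were higher in HCC827 (IGF1R, INSR, IGFBP7) and 1 lower (IGFBP4), beside 5.76% and 1.46%. The median change of the 10 genes was -0.28 in PC9 and 0.16 in HCC827, beside 0.047 and 0.068 over all genes tested. The PC9 median was -0.046 without PC9 DMSO replicate 2 and -0.43 after centring each array on its median, and the HCC827 median was 0.085 after that centring and 0.094 without HCC827 erlotinib replicates 2 and 3. A test of the PC9 change minus the HCC827 change called all 10 genes, 4 higher and 6 lower, where 45.2% of all genes were called, 21.2% higher and 23.9% lower. The split of all calls depended on scaling: 56.2% of the PC9 calls and 62.3% of the HCC827 calls were higher as deposited, and 41.6% and 50.4% after centring each array on its median, which moved the median change of all genes in PC9 to -0.10. The receptor rises, the IRS1 and IGFBP4 falls and the PC9 rises of IGFBP3 and IGFBP5 kept their direction and call under that centring.

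**Figure D1:**
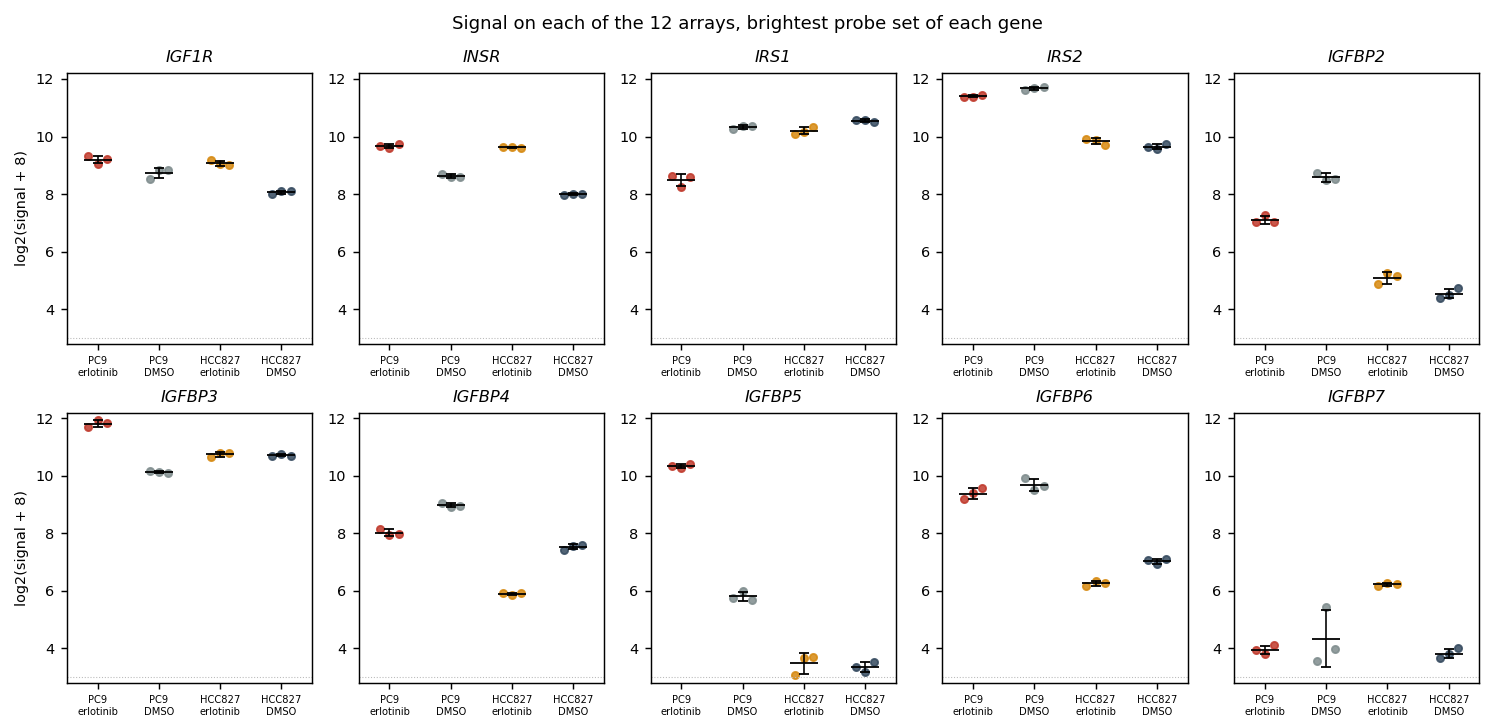
Signals of the 10 genes on the 12 arrays as log2(signal + 8), with PC9 erlotinib, PC9 DMSO, HCC827 erlotinib and HCC827 DMSO from left to right; points are arrays, horizontal marks are group means and bars are SD (n = 3), and the dotted line is a signal of 0. INSR averages 809.5 in PC9 and 778 in HCC827 in erlotinib, and IGFBP5 stands at 1289 in erlotinib-treated PC9 against 48.3 in DMSO while both HCC827 groups lie near the floor.

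The 2 receptors rose in both lines. INSR, the insulin receptor on chromosome 19, had signals of 816, 767 and 845 in erlotinib-treated PC9, against 407, 381 and 374 in DMSO. In HCC827 it had 779.5, 786 and 769.7 in erlotinib, against 241, 250.5 and 249.7 in DMSO. The groups did not overlap in either line, which was also true of 64.9% of all genes in PC9 and 62.1% in HCC827. The change was 1.05 ± 0.06 in PC9 (SE, limma adjusted p = 3.91e-10), 2.07-fold, and 1.62 ± 0.06 in HCC827 (adjusted p = 4.74e-12, limma), 3.08-fold, and 222 of 13185 genes had a higher change than INSR in HCC827. In DMSO, PC9 stood above HCC827 by 0.63 ± 0.06 (limma adjusted p = 9.21e-08). In erlotinib the lines were 809.5 ± 39.4 and 778 ± 8.02 (SD, n = 3 each), a difference of 0.06 with a 95% interval from -0.08 to 0.19 that was not called (limma adjusted p = 0.427).

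IGF1R, the IGF1 receptor on chromosome 15, showed a smaller rise. Its signals were 631, 525 and 589 in erlotinib-treated PC9, against 364, 448 and 454 in DMSO, and 567, 518 and 506 in erlotinib-treated HCC827, against 246, 265 and 264 in DMSO. All erlotinib arrays of a line lay above all its DMSO arrays. The change was 0.46 ± 0.09 in PC9 (SE, limma adjusted p = 3e-04), 1.38-fold, and 1.01 ± 0.09 in HCC827 (limma adjusted p = 1.2e-07), 2.02-fold. As with INSR, PC9 lay above HCC827 in DMSO, by 0.68 (limma adjusted p = 3.32e-06), and the lines were not called different in erlotinib, 582 ± 53.7 against 530.4 ± 32 (SD, n = 3 each), where the interval of the difference ran from -0.06 to 0.32 (limma adjusted p = 0.204). Across the 12 arrays the 2 receptors had a Pearson r of 0.9384, a description over arrays that share their treatments.

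The other INSR probe sets rose too, and those of IGF1R were mixed. All 4 INSR probe sets above the filter rose in both lines, by 0.94 to 1.55 in PC9 and by 1.20 to 1.93 in HCC827. Of the 4 IGF1R probe sets above the filter, 2 were called higher in each line and the other 2 were not called. With its probe sets averaged, the IGF1R rise in HCC827 was 0.37 (limma adjusted p = 0.00553), under 2-fold. The larger rise in HCC827 than in PC9, a difference of -0.55 for IGF1R and -0.58 for INSR, was called on the brightest probe set of each gene and on none of the 3 others. With each gene's probe sets averaged it was -0.08 for IGF1R (limma adjusted p = 0.644) and -0.22 for INSR (limma adjusted p = 0.0822), and the lines then differed in erlotinib, by 0.41 for IGF1R (limma adjusted p = 0.00142) and 0.29 for INSR (limma adjusted p = 0.00127).

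**Figure D2:**
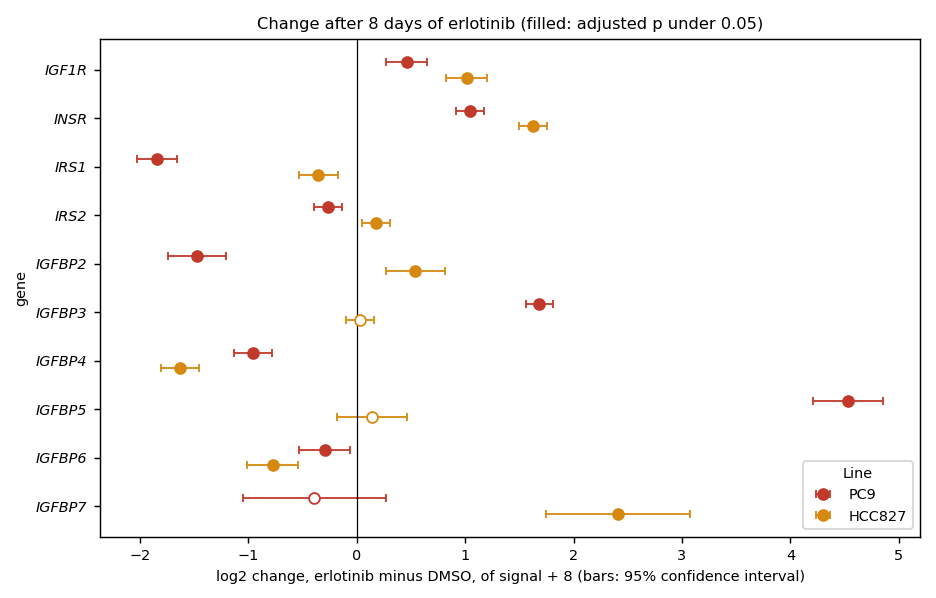
Log2 change of signal + 8, erlotinib minus DMSO, for the 10 genes in PC9 and HCC827; bars are 95% confidence intervals from limma and open marks were not called. IGF1R and INSR lie right of 0 and IRS1, IGFBP4 and IGFBP6 left of 0 in both lines, and IGFBP2 and IRS2 lie on opposite sides.

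The docking proteins moved the other way from the receptors in PC9. IRS1, the first-described docking protein of the insulin receptor, had 387, 298 and 381 in erlotinib-treated PC9, against 1216, 1322 and 1317 in DMSO. In HCC827 it had 1090.3, 1142 and 1279 in erlotinib, against 1522, 1514 and 1449 in DMSO. The erlotinib arrays were all lower in both lines, with a much wider gap in PC9. IRS1 fell by 1.84 on the log2 scale in PC9 (SE 0.09, limma adjusted p = 2.08e-11), to a level 3.58-fold lower, and 78 of 13185 genes fell further; in HCC827 it fell by 0.35 (SE 0.09, limma adjusted p = 0.00259). The lines' changes differed by -1.49 ± 0.12 (limma adjusted p = 7.2e-08), and all 3 IRS1 probe sets were lower in both lines, by 1.72 to 1.93 in PC9 and by 0.35 to 1.01 in HCC827. In DMSO the IRS1 signal averaged 1285 ± 60.0 in PC9 and 1495 ± 40.3 in HCC827 (SD, n = 3 each), a difference of -0.22 (limma adjusted p = 0.0301) that lost its call without PC9 DMSO replicate 1 or without HCC827 DMSO replicate 1 or 2, with adjusted p of 0.0955, 0.0797 and 0.074.

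IRS2, the docking protein known for its own induction by FOXO factors in liver, changed little. It had 2675, 2676 and 2776 in erlotinib-treated PC9, against 3146, 3273 and 3354 in DMSO, and fell by 0.26 (SE 0.06, limma adjusted p = 0.00105). In HCC827 it had 954, 933 and 828 in erlotinib, against 780.3, 757 and 855 in DMSO, and the groups overlapped. The HCC827 rise of 0.18 ± 0.06 (limma adjusted p = 0.0192) was lost without HCC827 erlotinib replicate 1 or 2 or DMSO replicate 1 or 2 (adjusted p from 0.0653 to 0.0912) and after median centring (adjusted p = 0.166). Both IRS2 probe sets had these directions. The larger contrast was between lines: PC9 exceeded HCC827 by 2.02 in DMSO (limma adjusted p = 1.44e-14) and by 1.58 in erlotinib (limma adjusted p = 4.53e-13), with no overlap of arrays, as for 78.5% and 76.8% of all genes.

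Among the binding proteins, IGFBP5 changed most. IGFBP5, which binds both IGFs and also the matrix around cells, had 1289, 1237 and 1341 in erlotinib-treated PC9, against 46.3, 55.2 and 43.5 in DMSO. HCC827 cells had 0.4, 4.7 and 5.1 in erlotinib, against 2.1, 1.0 and 3.5 in DMSO, all under the table's median of 13. On this probe set PC9 had a signal over that level already in DMSO. The other IGFBP5 probe sets averaged 20.7, 6.37, 2.83, 4.1 and 2.9 in DMSO-treated PC9. The last of these averaged 3.8 in DMSO-treated HCC827, so the order of the DMSO groups depended on the probe set. The PC9 rise was 4.53 ± 0.15 (SE, limma adjusted p = 3.94e-13), 23.1-fold on this scale, and 12 of 13185 genes rose more. In HCC827 the change was 0.14 ± 0.15 (limma adjusted p = 0.468), and the difference between the lines' changes was 4.39 ± 0.22 (limma adjusted p = 2.24e-10). All 6 IGFBP5 probe sets rose in PC9, by 3.05 to 5.54, and none of the 6 was called in HCC827. Without HCC827 erlotinib replicate 1, whose signal was 0.4, the HCC827 change was 0.35 and was called (limma adjusted p = 0.0349), at signals still under the median.

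IGFBP3, the main IGF carrier of serum, also rose in PC9. Its signals were 3293, 3891 and 3638 in erlotinib-treated PC9, against 1128, 1116 and 1098 in DMSO. In HCC827 they were 1596, 1768 and 1785 in erlotinib, against 1648, 1730.3 and 1654 in DMSO, and these groups overlapped. The PC9 rise was 1.68 ± 0.06 (SE, limma adjusted p = 7.12e-13), 3.21-fold, which 412 genes exceeded. In HCC827 the change was 0.03 with a 95% interval from -0.10 to 0.16 (limma adjusted p = 0.685), and the changes of the lines differed by 1.65 ± 0.08 (limma adjusted p = 3.31e-10). The second IGFBP3 probe set rose by 2.36 ± 0.08 in PC9 and was lower in HCC827, by -0.32 ± 0.08 (limma adjusted p = 0.00368), so the HCC827 result depended on the probe set. The order of the lines turned with treatment: PC9 minus HCC827 was -0.59 in DMSO (limma adjusted p = 1.6e-07) and 1.07 in erlotinib (limma adjusted p = 7.48e-11).

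IGFBP2 and IGFBP7 went opposite ways in the lines or changed in 1 of them. IGFBP2, a binding protein of fetal tissue that many carcinomas make, had 121, 147 and 123 in erlotinib-treated PC9, against 421, 347 and 357 in DMSO, and fell by 1.47 (SE 0.13, limma adjusted p = 3.75e-08). HCC827 had 21.0, 30.1 and 27.2 in erlotinib, against 13.1, 14.7 and 18.3 in DMSO, a rise of 0.54 ± 0.13 (limma adjusted p = 0.00195) close to the table's median. The groups did not overlap in either line, and the changes differed by -2.01 ± 0.18 (limma adjusted p = 1.91e-07). The HCC827 call was lost with the actin 3′/5′ ratio as a covariate (change 0.47, limma adjusted p = 0.0852) and without HCC827 erlotinib replicates 2 and 3 together (change 0.32, limma adjusted p = 0.162), a fit in which the lone erlotinib array is assumed to vary like the other groups. IGFBP2 and IGFBP5 are neighbours on chromosome 2 with no other protein-coding gene between them in RefSeq, and in PC9 the first was lower and the second higher.

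IGFBP7, which binds IGFs weakly and is found in matrix and vessels, had 64.1, 69.4 and 68.0 in erlotinib-treated HCC827, against 4.7, 5.8 and 8.1 in DMSO. In PC9 it had 7.2, 5.9 and 9.2 in erlotinib, against 3.9, 35.7 and 7.7 in DMSO. The HCC827 arrays were clearly apart, and in PC9 a single DMSO array stood above the rest. The HCC827 rise was 2.41 ± 0.31 (SE, limma adjusted p = 8.15e-06), which 59 genes exceeded, and a second probe set gave 2.75 ± 0.41. The PC9 change was -0.39 ± 0.31 (limma adjusted p = 0.287); it was 0.17 (limma adjusted p = 0.369) without PC9 DMSO replicate 2 and -0.77, a call, without PC9 DMSO replicate 1 (limma adjusted p = 0.0245). That second DMSO array was also the only one of the 12 with genes at least 4-fold above both other arrays of its group: 5 genes, CLDN11, FBN2, GJA1, MYLK and SPARC. VIM had 228.9 on it, against 74.0 and 74.5 on the others, and the share of this array in the other PC9 results was checked by leaving it out: the PC9 counts of 4 higher and 5 lower were the same without it, whereas the median of the 10 changes moved to -0.046.

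In bulk RNA, fewer cells of a type and less RNA per cell cannot be told apart. The 6 fibroblast markers had a higher summed signal in erlotinib in both lines. They summed to 383.6 to 469.5 in erlotinib-treated PC9, against 78.8 to 109.8 in DMSO. In HCC827 they summed to 620.1 to 684.2 in erlotinib, against 155.1 to 181.9 in DMSO. IGFBP5 rose in PC9 and was not called in HCC827, whereas IGFBP7 rose in HCC827 and was not called in PC9. The sums came from COL1A1 and LUM, while COL1A2, DCN, PDGFRB and THY1 had at most 10.4 on any array. Among endothelial markers PECAM1 and CDH5 had signals in PC9, with PECAM1 lower at 506 in erlotinib against 835 in DMSO and CDH5 higher at 178 in erlotinib against 105 in DMSO (limma adjusted p = 4.95e-06 and 3.99e-05), whereas VWF and KDR had at most 5.3. The part of these markers in the IGFBP results was not tested.

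IGFBP4 and IGFBP6 were lower in both lines. IGFBP4, an inhibitor of IGF action that PAPPA cleaves, had 276, 239.8 and 242 in erlotinib-treated PC9, against 529.7, 476 and 489 in DMSO, and 52.4, 50.2 and 52.9 in erlotinib-treated HCC827, against 164, 181 and 186 in DMSO. No arrays overlapped between treatments. IGFBP4 fell by 0.96 in PC9 (SE 0.08, limma adjusted p = 4.4e-08) and by 1.63 in HCC827 (SE 0.08, limma adjusted p = 1.8e-10), where 54 of 13185 genes fell further, and the changes differed by 0.67 ± 0.12 (limma adjusted p = 0.000249). PC9 exceeded HCC827 by 1.45 in DMSO and 2.12 in erlotinib, both called.

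IGFBP6, which prefers IGF2, had 63.5, 73.5 and 69.3 in erlotinib-treated HCC827, against 126, 114 and 129 in DMSO, and fell by 0.78 (SE 0.11, limma adjusted p = 2.22e-05). In PC9 it had 572, 669 and 751 in erlotinib, against 952, 714 and 789 in DMSO, and the groups overlapped. The PC9 change of -0.30 ± 0.11 (limma adjusted p = 0.0271) was lost without PC9 erlotinib replicate 1 (limma adjusted p = 0.152), without PC9 DMSO replicate 1 (limma adjusted p = 0.15) and with quantile normalization (limma adjusted p = 0.0538). The difference between the lines' changes, 0.48 ± 0.16 (limma adjusted p = 0.0202), was lost without PC9 erlotinib replicate 3 (limma adjusted p = 0.0591), without PC9 DMSO replicate 2 (limma adjusted p = 0.0521), with a constant of 32 in place of 8 (limma adjusted p = 0.0681), after median centring (limma adjusted p = 0.0543) and with the actin covariate (limma adjusted p = 0.12). IGFBP6 lay higher in PC9 than in HCC827 in both conditions, by 2.64 in DMSO and 3.12 in erlotinib, both called.

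**Figure D3:**
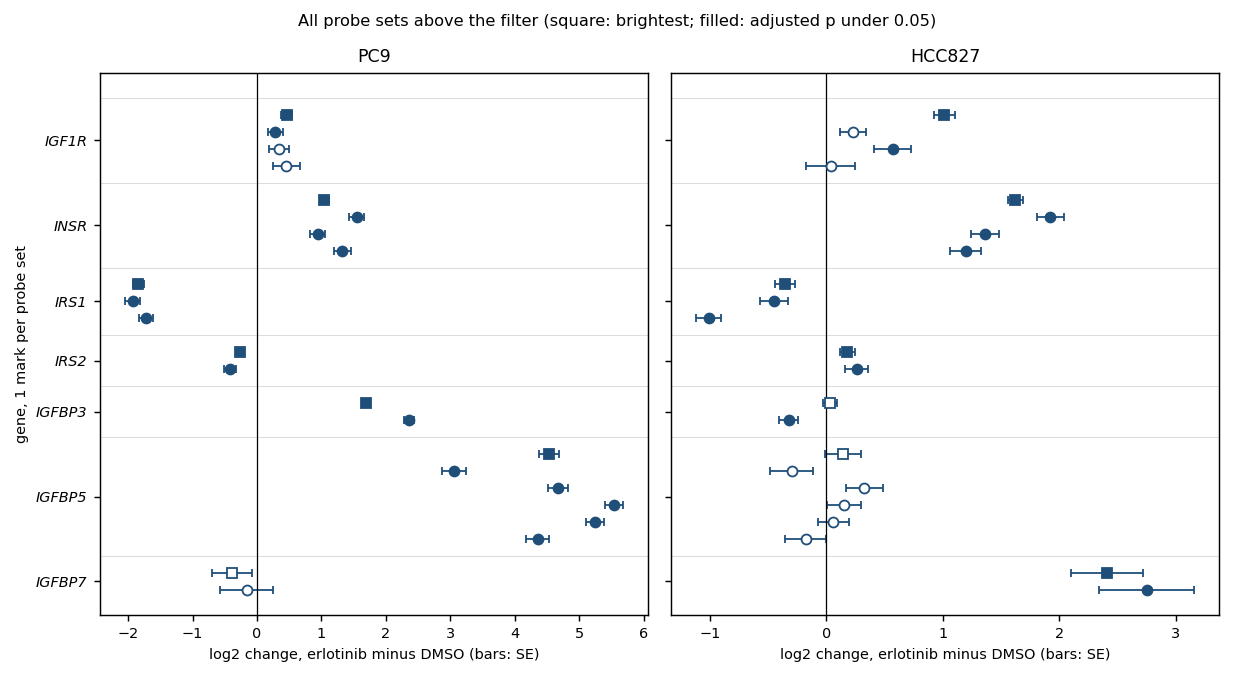
Log2 change, erlotinib minus DMSO, of each probe set above the filter for the 7 genes with several, in PC9 and in HCC827; bars are SE, squares are the brightest probe sets, and open marks were not called. All 6 IGFBP5 probe sets lie between 3.05 and 5.54 in PC9, and none of them was called in HCC827.

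Ordered by the level of each gene's brightest probe set, the 4 groups stood in several orders. For both receptors the erlotinib groups came first and overlapped each other, followed by DMSO-treated PC9 and then DMSO-treated HCC827. For IRS2, IGFBP2, IGFBP4, IGFBP5 and IGFBP6 both PC9 groups lay above both HCC827 groups; overlaps between neighbours in that order occurred between the HCC827 groups of IRS2 and IGFBP5 and between the PC9 groups of IGFBP6. In IRS1 the erlotinib-treated PC9 group was the lowest, and erlotinib-treated HCC827 overlapped DMSO-treated PC9. IGFBP3 was highest in erlotinib-treated PC9 and lowest in DMSO-treated PC9, with the HCC827 groups overlapping between them. IGFBP7 was highest in erlotinib-treated HCC827, and its other 3 groups overlapped in turn. Between lines, PC9 was higher than HCC827 in erlotinib for 6 genes and lower for 2, where 76.4% of all genes were called, 36.3% higher and 40.1% lower. In DMSO PC9 was higher for 7 and lower for 2, where 76.2% were called, 36.8% higher and 39.4% lower.

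The genes with the most similar pattern over the 12 arrays, by Pearson r of log2(signal + 8), were LACC1 (0.9904) and CASZ1 (0.9854) for IGF1R, and ST3GAL3 (0.9912) and SLC16A9 (0.99) for INSR. IRS1 was nearest to COA7 (0.9938) and EPB41L4B (0.9929), and IRS2 to ADAM19 (0.9982) and SIX2 (0.9979). For the binding proteins the nearest were LOXL1 (0.9959) and ADGRE2 (0.994) for IGFBP2, H2BC12 (0.9916) and GATA6 (0.9788) for IGFBP3, EMP1 (0.9962) and ZFP91 (0.9941) for IGFBP4, LOXL4 (0.9969) and INSL3 (0.9964) for IGFBP5, TLE3 (0.9987) and NQO1 (0.9969) for IGFBP6, and SESN3 (0.9713) and BTG4 (0.945) for IGFBP7. These are descriptions over 4 groups of arrays, where few patterns are possible. SESN3, nearest to IGFBP7, also had its highest PC9 DMSO signal on replicate 2.

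The genes listed as IGFBP proteases and their inhibitors were called in both directions. In PC9, 3 were higher and 2 lower of 9, beside 36.3% higher and 28.3% lower of all genes. In HCC827, 6 were higher and 2 lower of 9, beside 32.2% and 19.5% of all genes. After median centring 2 were higher and 4 lower in PC9. PAPPA, the metalloprotease that cleaves IGFBP4 and IGFBP5, had 41.2, 31.7 and 42.3 in erlotinib-treated PC9, against 111, 144 and 124 in DMSO. In HCC827 it had 66.1, 57.4 and 56.3 in erlotinib, against 5.5, 6.4 and 5.6 in DMSO. The arrays were apart in both lines, downward in PC9 and upward in HCC827: PAPPA fell by 1.53 in PC9 (SE 0.12, limma adjusted p = 1.57e-08), rose by 2.29 ± 0.12 in HCC827 (limma adjusted p = 2.92e-10), and the changes differed by -3.83 ± 0.17 (limma adjusted p = 8.33e-11). Under the alternative settings the PAPPA change ran from -1.75 to -0.74 in PC9 and from 0.65 to 3.16 in HCC827. The difference ran from -4.85 to -1.39. The PAPPA signals in DMSO-treated HCC827 lay under the table's median of 13. STC2, a stanniocalcin that inhibits PAPPA, had 917, 945 and 908 in erlotinib-treated PC9, against 1137, 1114 and 1149 in DMSO, and 1676, 1891 and 1778 in erlotinib-treated HCC827, against 814, 932 and 841 in DMSO. It too was lower in PC9, by -0.29, and higher in HCC827, by 1.04, with a difference of -1.33 ± 0.08 (limma adjusted p = 4.03e-09).

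The related inhibitor STC1 had 140.1, 142 and 123 in erlotinib-treated HCC827, against 385, 394 and 395 in DMSO, and fell by 1.48 (SE 0.08, limma adjusted p = 5.05e-10), while its PC9 change of 0.12 was not called (limma adjusted p = 0.211). ADAM12, a metalloprotease that cleaves IGFBP3 and IGFBP5, rose by 0.44 ± 0.11 in PC9 and by 0.90 ± 0.11 in HCC827. PAPPA2, the relative of PAPPA that cleaves IGFBP5, fell by 0.76 in HCC827 (limma adjusted p = 0.000272). TMPRSS2 is a membrane serine protease on this list, and an action of it on IGFBPs was not examined here. Its signals were 347, 324 and 247 in erlotinib-treated PC9, against 11.4, 10.1 and 14.7 in DMSO. The PC9 rise was 3.96 ± 0.14 (limma adjusted p = 4.74e-13) and ran from 1.70 to 4.55 under the alternative settings. In HCC827 TMPRSS2 rose by 0.74 at signals from 10.9 to 11.7 in erlotinib and from 2.6 to 4.6 in DMSO.

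**Figure D4:**
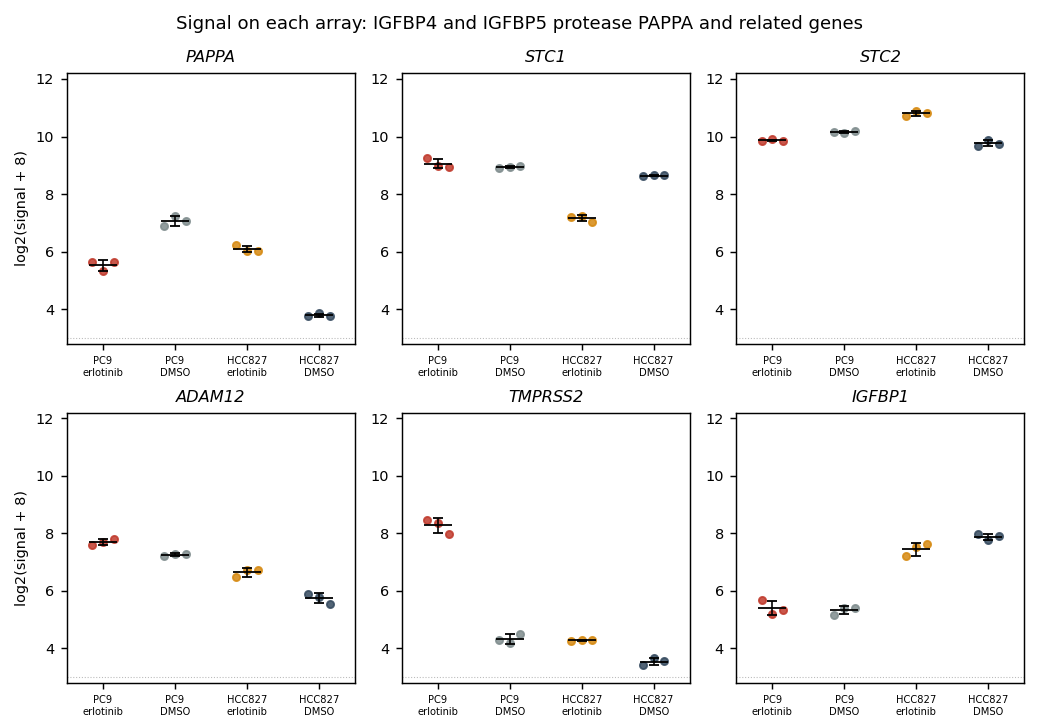
Signals of PAPPA, its inhibitors STC1 and STC2, ADAM12, TMPRSS2 and IGFBP1 on the 12 arrays as log2(signal + 8), with PC9 erlotinib, PC9 DMSO, HCC827 erlotinib and HCC827 DMSO from left to right; horizontal marks are means and bars SD (n = 3). PAPPA is lower in erlotinib in PC9, 38.4 against 126, and higher in HCC827, 59.9 against 5.83.

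The measured IGF was dim. IGF1 had at most 25.3 on any array, INS, INSRR and IGFALS were under the filter, and IGF2 was not analysed here. IGF2R, the receptor that clears IGF2, rose in both lines, by 0.44 ± 0.09 in PC9 (limma adjusted p = 0.000545) and by 0.65 ± 0.09 in HCC827 (limma adjusted p = 2.09e-05). It was the only call among 5 tested genes of this list in PC9, where 64.7% of all genes were called, and that call was lost with averaged probe sets (change 0.18, limma adjusted p = 0.0513); after median centring 1 gene was higher and 2 were lower. In HCC827, where 51.7% of all genes were called, 4 were higher and 1 was lower, and 3 were higher with quantile normalization or median centring: IGFBPL1, an IGFBP-like secreted protein, rose by 2.26 ± 0.14 (limma adjusted p = 2.34e-09), RLN2, the hormone relaxin, rose by 0.56 ± 0.12 (limma adjusted p = 0.00111), IGF1, named here after its values were seen, was called as well, and IGFBP1, the insulin-regulated binding protein next to IGFBP3 on chromosome 7, fell by 0.43 (limma adjusted p = 0.0137), a call lost without HCC827 erlotinib replicate 1 or HCC827 DMSO replicate 1 (limma adjusted p = 0.0795 and 0.0567).

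Of the adaptors and kinases downstream of the receptors, 6 were higher and 2 lower of 19 in PC9, where 64.7% of all genes were called, and 4 were higher and 3 lower of 19 in HCC827, where 51.7% were called. The split depended on the settings: it was 5 higher and 4 lower in PC9 after median centring, and 1 higher and 5 lower in HCC827 with each gene's probe sets averaged. SOS2, a guanine nucleotide exchange factor for RAS, had 335, 254 and 302 in erlotinib-treated PC9, against 80.9, 97.5 and 94.3 in DMSO, and rose by 1.62 ± 0.10 (limma adjusted p = 7.28e-10); in HCC827 it rose by 0.72 ± 0.10 (limma adjusted p = 1.96e-05), a call lost with averaged probe sets (change 0.20, limma adjusted p = 0.0571). A pair of PI3-kinase subunits moved in opposite directions between lines. PIK3R3, a regulatory subunit, had 404, 429 and 359 in erlotinib-treated PC9, against 826, 712 and 618 in DMSO, and 632, 627 and 570.1 in erlotinib-treated HCC827, against 358, 386 and 380.0 in DMSO, with changes that differed by -1.53 ± 0.13 (limma adjusted p = 1.44e-07). PIK3CD, the catalytic delta subunit, rose by 1.21 in PC9 and fell by 0.42 in HCC827, a difference of 1.62 ± 0.14 (limma adjusted p = 9.15e-08); its HCC827 fall was not called with averaged probe sets (limma adjusted p = 0.408) or with the actin covariate (limma adjusted p = 0.0736). GAB1, a docking adaptor, rose by 1.30 in PC9. Smaller calls included PTPN11 in PC9, by -0.34, and SOS1 and SHC1 in HCC827, by 0.54 and -0.21. In HCC827 SOS1 lost its call with averaged probe sets (limma adjusted p = 0.0507), and SHC1 without HCC827 erlotinib replicate 1 or HCC827 DMSO replicate 1 (limma adjusted p = 0.0534 and 0.0766). SOS1 was also higher in PC9, with 634.9 to 785.9 in erlotinib against 462.3 to 499.9 in DMSO, whereas the SHC1 groups overlapped there. AKT2 in HCC827, at -0.21, lay at the threshold (limma adjusted p = 0.0498) and lost its call under 13 of 25 alternatives.

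Of the negative regulators of the pathway, 10 were higher and 5 lower of 18 in PC9, and 6 were higher and 3 lower of 18 in HCC827, beside 36.3% higher and 28.3% lower of all genes in PC9 and 32.2% and 19.5% in HCC827. The counts were 7 higher and 6 lower in PC9 after median centring, and 4 higher and 6 lower in HCC827 with averaged probe sets. PIK3IP1, an inhibitor of the PI3-kinase catalytic subunit, had 124, 108 and 91.1 in erlotinib-treated PC9, against 9.7, 9.6 and 9.3 in DMSO, and 57.9, 59.4 and 66.3 in erlotinib-treated HCC827, against 0.4, 0.5 and 6.2 in DMSO. It rose by 2.71 ± 0.17 and 2.78 ± 0.17 (limma adjusted p = 8.66e-10 and 1.55e-09). SOCS2, a suppressor of cytokine and IGF1 receptor signals, had 310.3, 280.1 and 319 in erlotinib-treated PC9, against 138, 173 and 151 in DMSO, and 398, 368 and 448 in erlotinib-treated HCC827, against 804, 789 and 822 in DMSO, a difference between changes of 1.93 ± 0.13 (limma adjusted p = 6.03e-09). In PC9, SOCS3 fell by 1.76, TRIB3 by 0.76 and GRB14, an adaptor that blocks the insulin receptor kinase, by 0.58. INPPL1, a phosphoinositide phosphatase, rose by 1.51 in PC9. Under the alternative settings the SOCS3 change in PC9 ran from -1.91 to -0.69. In HCC827, DOK1 rose by 0.87 and TSC1 by 0.70, and GRB14 fell by 0.54 and PHLPP2 by 0.30. In PC9, DOK1 had 78.6 to 93.2 in erlotinib against 42.6 to 63.2 in DMSO. TSC1 had 214.7 to 238.6 against 129.3 to 151.2 there, and PHLPP2 160.2 to 183.1 against 210.5 to 241.3, the same directions as in HCC827. TRIB3 went the other way in HCC827, with 226.2 to 255.8 in erlotinib against 173.5 to 193.3 in DMSO. The PHLPP2 call was lost with the actin covariate (change -0.11, limma adjusted p = 0.487) and without HCC827 erlotinib replicates 2 and 3 (change -0.19, limma adjusted p = 0.242).

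The listed FOXO factors and textbook targets were called higher for 9 of 12 in PC9 and 11 of 12 in HCC827, with none lower. Over all genes, 36.3% and 32.2% were called higher. The medians were 0.47 and 0.73, against 0.047 and 0.068 over all genes. This list was chosen with earlier results of these data known. It leaves out the textbook targets INSR and IRS2. INSR was higher in both lines, whereas IRS2 changed by -0.26 in PC9 and by 0.18 in HCC827. The insulin-regulated IGFBP1, counted on another list, went against the direction of this list in HCC827, with a change of -0.43. It was not called in PC9, with 28.6 to 42.9 in erlotinib against 28 to 34.5 in DMSO. The tally therefore depends on which genes were listed. CITED2, a transcriptional co-regulator, had 1921, 1992 and 1994 in erlotinib-treated PC9, against 523, 620.2 and 689 in DMSO, and rose by 1.68 ± 0.08 in PC9 and 1.83 ± 0.08 in HCC827 (limma adjusted p = 2.78e-11 and 2.62e-11). FOXO4 rose by 1.26 and CCNG2, an atypical cyclin, by 1.14 in PC9. In HCC827, BCL6, a transcriptional repressor, rose by 2.31 ± 0.09 and SESN3, a stress-induced regulator of mTOR, by 2.19 ± 0.27. Genes were named by line, and a gene named for a line could rise in the other too. In HCC827, FOXO4 had 98 to 129.3 in erlotinib against 24.4 to 28.1 in DMSO, and CCNG2 1190.5 to 1305.6 against 496.2 to 523.7. In PC9, BCL6 had 832 to 955.9 in erlotinib against 584.4 to 662.7 in DMSO, whereas the SESN3 groups overlapped. Under the alternative settings the SESN3 rise ran from 0.65 to 2.51. After median centring the counts were 7 higher and 1 lower in PC9 and 9 higher in HCC827, and with the actin 3′/5′ ratio as a covariate 7 were higher in HCC827.

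**Figure D5:**
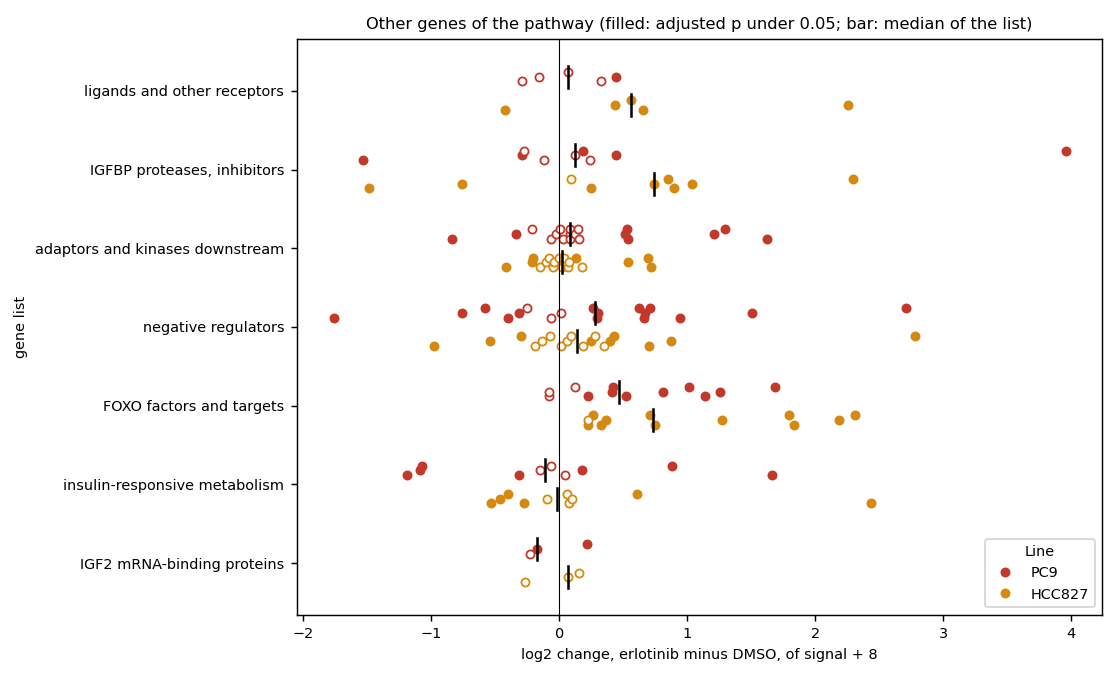
Log2 change of signal + 8, erlotinib minus DMSO, of the tested genes of 7 lists of other pathway genes in PC9 (upper row of each list) and HCC827 (lower row); filled points were called and the bar is the median. In the FOXO list the medians are 0.47 and 0.73, and 9 and 11 of 12 genes were called higher.

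Of the insulin-responsive metabolic genes, 3 were higher and 4 lower of 10 in PC9, and 2 were higher and 4 lower of 10 in HCC827, beside 36.3% higher and 28.3% lower of all genes in PC9 and 32.2% and 19.5% in HCC827. With quantile normalization 6 were lower in PC9, and with the actin covariate 2 were lower in HCC827. PDK4, the kinase that turns off pyruvate dehydrogenase in fasting, rose by 1.66 ± 0.11 in PC9 and 2.43 ± 0.11 in HCC827 (limma adjusted p = 1.87e-09 and 4.87e-11), and PCK2, the mitochondrial PEP carboxykinase, by 0.88 and 0.61. HK2, a hexokinase, SREBF1, the insulin-responsive regulator of fat synthesis, and FASN, the fatty acid synthase, fell by 1.19, 1.09 and 1.08 in PC9, and by 0.54, 0.46 and 0.40 in HCC827. Sizes depended on the settings, while the PC9 calls of these genes and both PDK4 calls were kept. In PC9, HK2 ran from -1.34 to -0.56, SREBF1 from -1.31 to -0.86 and FASN from -1.29 to -0.40. PDK4 ran from 0.83 to 1.79 in PC9 and from 1.02 to 2.55 in HCC827. The HCC827 fall of FASN lost its call with the actin covariate (limma adjusted p = 0.237), with averaged probe sets (limma adjusted p = 0.392), without HCC827 erlotinib replicates 2 and 3 together (limma adjusted p = 0.321), and without erlotinib replicate 2 or 3 or DMSO replicate 1 or 2 of HCC827 (limma adjusted p from 0.0623 to 0.0909). The HCC827 fall of HK2 was -0.088 with averaged probe sets (limma adjusted p = 0.354). GSK3B was called higher in PC9 by 0.17 (limma adjusted p = 0.0313), a call lost under 8 of 25 alternatives, among them median centring (change 0.028) and leaving out PC9 erlotinib replicate 1 or 3 or PC9 DMSO replicate 1 or 3. Of the 3 IGF2 mRNA-binding proteins, 1 was higher and 1 lower in PC9, IGF2BP3 and IGF2BP2, the first named after its values were seen, and none was called in HCC827 by limma. After median centring 0 were higher and 2 lower in PC9. In HCC827, 1 was lower with quantile normalization, median centring or averaged probe sets, and 1 was higher without PC9 DMSO replicate 2. The IGF2BP2 fall of 0.18 in PC9 lost its call with quantile normalization (limma adjusted p = 0.109) and with averaged probe sets (limma adjusted p = 0.126).

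RNA quality differed between groups in HCC827. The actin 3′/5′ ratio averaged 3.03 ± 0.598 in erlotinib-treated HCC827 and 2.17 ± 0.0563 in DMSO (SD, n = 3 each; exact permutation test, two-sided p = 0.1, the smallest that 3 against 3 arrays allow), and the GAPDH ratio 1.37 ± 0.150 and 1.17 ± 0.0231 (exact permutation p = 0.1). In PC9 the actin ratio was 2.22 ± 0.271 in erlotinib and 2.18 ± 0.152 in DMSO (exact permutation p = 1). With the actin ratio as a covariate, the HCC827 calls over all genes were 4149 in place of 6813, and 7 of the 8 calls among the 10 genes were still made there, all but IGFBP2.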

How the data were processed

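Messenger RNA of 12 samples was hybridised to 1-colour Affymetrix arrays. The authors deposited linear intensities, 1 for each array and probe set, made with MAS5 per the submitters' processing notes; the values showed an equal 2% trimmed mean on every array, and no detection calls were given. Of 54675 probe sets, 41091 had 1 gene symbol in the platform table, 1801 several and 11721 none; only the first were used, and the brightest stood for its gene. No sample was left out. Signals were analysed as log2(signal + 8) in limma 3.58.1 (R 4.3.3), with 1 mean per group, all 12 arrays and an intensity trend, over 13185 genes with a group mean of at least 13; the test was tried on simulated data. Calls needed a Benjamini-Hochberg adjusted p under 0.05.

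The 10 genes, the 7 lists and the markers were chosen with earlier results of these data known. Named were all 10 genes, up to 3 called genes of each list with the largest rise and 3 with the largest fall per line and arrays that did not overlap, the 2 genes nearest to each of the 10, and EGFR. The 3′/5′ ratios were compared by an exact permutation test. Alternatives were another constant, scaling, filter, probe set rule or variance, the arrays of 1 line, a replicate block, the actin 3′/5′ ratio, and leaving out arrays. Promoter sequences are RefSeq's (GRCh38.p14), and figures used matplotlib 3.10.9.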

Additional observations from a re-analysis of the deposited data

Results flagged for a closer look

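The change in PC9 minus the change in HCC827 passed its own test in limma for each of the 10 genes, the reason they are listed here; 45.2% of all genes passed it. It was -0.55 for IGF1R and -0.58 for INSR, which rose in both lines and less in PC9, and these 2 differences were not called on the other probe sets. For the docking proteins it was -1.49 for IRS1 and -0.45 for IRS2. Among the binding proteins it was -2.01 for IGFBP2 and -2.80 for IGFBP7, in both a lower change in PC9 than in HCC827. The level of IGFBP2 was higher in PC9, by 4.04 in DMSO and 2.02 in erlotinib. The difference between changes was 1.65 for IGFBP3, 0.67 for IGFBP4, 4.39 for IGFBP5 and 0.48 for IGFBP6. Of 13185 genes, 8 had a higher difference than IGFBP5. For IGFBP4 and IGFBP6 a positive difference means a smaller fall in PC9. The IGFBP6 difference lost its call under 5 of 24 alternatives.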

How the results depend on the processing

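Each result of the 10 genes was recomputed under up to 25 alternatives, 1215 values in all: 1180 kept direction and call, 23 lost and 5 gained the call, and 7 changed sign. Of 1543 values of the named list genes and EGFR, 42 lost and 1 gained the call and 3, all EGFR in HCC827 near 0, changed sign. The sign changes of the 10 genes were IGFBP3 in HCC827 (-0.043 with median centring, -0.15 with averaged probe sets, -0.071 without HCC827 erlotinib replicates 2 and 3), IGFBP5 in HCC827 (-0.19 with the actin covariate, -0.27 without those 2 arrays), and, without PC9 DMSO replicate 2, IGFBP7 in PC9 (0.17) and between the DMSO groups (-0.048), where leaving out single arrays gave -0.77 to 0.17 and -0.048 to 0.89. EGFR in HCC827 ranged from -0.038 to 0.046 when 1 array was left out. The cause of these changes was not tested. Fits with the actin covariate or with missing HCC827 arrays leave less information on HCC827, and the part of this in the changes was not tested. The number of genes lower in PC9 than in HCC827 in DMSO was 1 in place of 2 with median centring and without the intensity trend, and 1 to 2 when 1 array was left out; in erlotinib it was 1 in place of 2 under the filter at the 70th percentile, where IGFBP7 was not tested. Calls over all genes in HCC827 were 6813, but 4149 with the actin covariate and 4399 without HCC827 erlotinib replicates 2 and 3. The replicate numbers did not pair the samples: deviations of same-numbered arrays correlated at -0.2549, -0.1938 and -0.0201 in PC9 and 0.0106, 0.1314 and 0.0115 in HCC827. With the replicate block no call of the 10 genes changed, and 8442 genes were called in PC9 in place of 8525 and 6654 in HCC827 in place of 6813. Signals near or under 13, as for IGFBP5 and IGFBP2 in HCC827 and IGFBP7 in PC9, limit what can be read from their changes.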
